A study of Homo sapiens with 30 samples.

Results

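Glycolysis and the response to low oxygen were followed through 35 genes of 57773 in each count table. Membership was set by name: each was the gene whose symbol equalled one of 35 fixed names, and all 35 were present in all 4 tables. Glycolysis breaks glucose down to pyruvate in the cytoplasm, and lactate dehydrogenase turns pyruvate into lactate. In low oxygen the hydroxylases EGLN1 and EGLN3 stop marking the α subunits HIF1A and EPAS1 for destruction, and the resulting HIF transcription factors raise the genes of glucose uptake, glycolysis, blood vessel growth, acid handling and collagen modification. Prostate epithelium is known for its secretion of citrate, and prostate cancers for changes of this metabolism under androgen.

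The study asked how loss of RB1, the retinoblastoma protein, a brake on E2F factors and cell division, bears on the use of LSD1 (KDM1A), a histone demethylase, in prostate cancer cells. RNA was sequenced from 22 libraries in 14 groups and 3 human prostate cancer cell lines. VCaP cells received a control siRNA or an RB1 siRNA at 20 nM for 2 days (3 libraries each). C4-2-tet-shRB cells, a derivative of C4-2 that makes a short hairpin RNA against RB1 when doxycycline is given, were studied in 2 separate tables. In the first, they had no doxycycline or 0.05 µg/ml for 3 days, and either DMSO or the LSD1 inhibitor GSK2879552 at 10 µM for 24 h (2 libraries per group, medium with 5% charcoal-stripped serum). In the second, they had no doxycycline or 0.05 µg/ml for 3 or 30 days, and either vehicle or dihydrotestosterone (DHT, an androgen) at 10 nM for 24 h, in 8% charcoal-stripped and 2% regular serum. That table held 1 library per group, read in 2 lanes. LNCaP cells, the line from which C4-2 was derived, had vehicle or GSK2879552 at 1 µM for 2 days in 5% charcoal-stripped serum (1 library each, in 2 lanes). The labels give 10% serum for VCaP, while the VCaP library names refer to charcoal-stripped serum, so the androgen level of those cells is uncertain. No group had doxycycline with a control hairpin, so loss of RB1, doxycycline itself and hairpin expression cannot be told apart in C4-2 cells. The labels do not say that replicates were separate cultures, and p-values then measure only the spread between these libraries. The second C4-2 table has no replicates, and its p-values measure departure from an additive model.

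Libraries held 4311455 to 22326960 counted reads, the VCaP libraries being the shallowest. Levels are given as CPM (counts per 1000000 counted reads) with TMM scaling within each table. RB1 was 56.2, 59.7 and 63.5 CPM in the VCaP control libraries and 5.37, 6.68 and 7.36 CPM after RB1 siRNA. In C4-2 cells it was 23.3, 26.0, 32.9 and 22.1 CPM in the 4 libraries without doxycycline of the inhibitor table and 4.63, 6.27, 5.81 and 6.70 CPM in the 4 with it. In the DHT table it was 47.6 and 51.1 CPM without doxycycline and 7.90, 10.0, 6.26 and 6.23 CPM with it. Each VCaP and C4-2 library thus matched its label for RB1. The luminal prostate markers KLK2, KLK3, HOXB13, TMPRSS2, FOLH1, KRT8 and KRT18 were detected in every library. The VCaP marker ERG was at 273 to 325 CPM in VCaP and at most 0.22 CPM elsewhere. Of the stromal, endothelial and immune markers, CD3E was at most 0.10 CPM, but others were higher. VWF reached 23.1 CPM in LNCaP and 8.65 CPM in the C4-2 inhibitor table, LUM was at 5.92 to 9.01 CPM in VCaP, and COL3A1 reached 4.15 CPM in LNCaP.

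The enzymes of glycolysis made up most of the counts on these genes, and their share differed between tables. All 35 genes together took 0.66% to 0.74% of the counts in VCaP, 3.06% to 3.79% in C4-2 cells of the inhibitor table, 1.13% to 1.40% in those of the DHT table, and 0.76% and 0.65% in LNCaP. Per the labels, an mRNA kit was used for the VCaP and the inhibitor table and a total RNA kit for the DHT and LNCaP tables. Line, kit and medium therefore cannot be told apart in these levels, so levels set across tables below are descriptions, and tests of levels were made within a table.

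**Figure D1:**
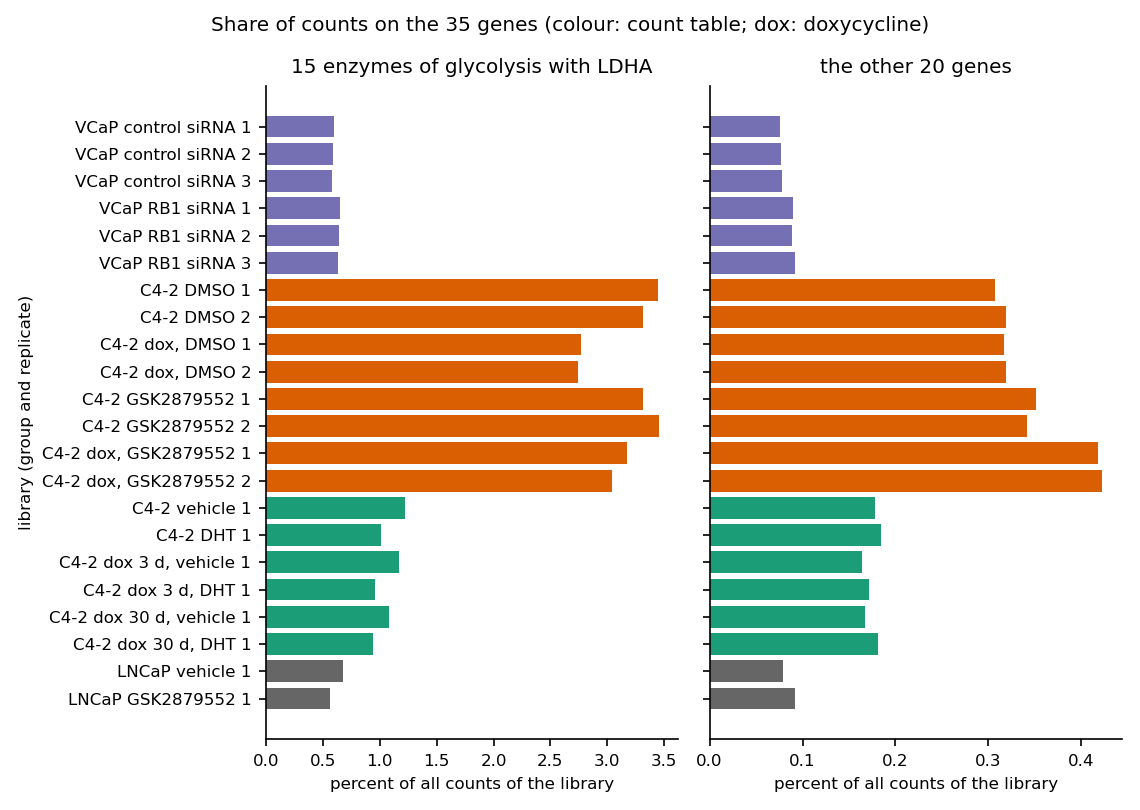
Share of all counts of each library that fell on the 15 enzymes of glycolysis with LDHA (left) and on the other 20 genes (right), in percent, 1 bar per library, coloured by table. C4-2 libraries of the inhibitor table are the highest in both panels, and within that table the 2 groups with doxycycline have the shortest bars on the left while the group with doxycycline and GSK2879552 has the longest on the right.

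Per kilobase of exon, ALDOA, TPI1, GAPDH, PGK1, ENO1 and PKM held the first 6 ranks of the 35 genes in the control group of every table. In control VCaP cells GAPDH, which oxidises glyceraldehyde 3-phosphate, stood at 306 CPM per kb, ENO1, the enolase, at 208, and ALDOA, the aldolase of most tissues, at 98.1. In C4-2 cells with DMSO the same quantity was 1924 for GAPDH, 1541 for ALDOA and 1103 for ENO1. ALDOA ranked first of the 35 in untreated C4-2 cells of the DHT table and in untreated LNCaP cells, and 5th in VCaP. Reads of processed pseudogenes limit some of these levels: annotated copies of GAPDH held 23.2% to 35.8% as many counts as the gene, those of TPI1 27.9% to 37.1%, those of BNIP3 36.5% to 43.2% and those of LDHA 11.6% to 16.4%. How reads with several alignments were counted is not given in the sources used here, so levels of these 4 genes are uncertain, as are those of PGAM1, whose copies held 0.69% to 11.96%, and of SLC2A3, which has the near-identical paralogue SLC2A14.

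At the other end, SLC2A3, CA9, ADM, BNIP3L and ANKRD37 were near the detection limit in at least 1 table. SLC2A3, the high-affinity glucose transporter GLUT3, had 4 to 12 counts per library in VCaP and 0 to 4 in the C4-2 inhibitor table. CA9, the carbonic anhydrase that exports acid equivalents at the cell surface, had 2 counts in 1 VCaP library and 0 in the other 5, against 128 to 373 in the C4-2 inhibitor table. ADM, the vasodilator peptide adrenomedullin, had 26 to 61 counts per library in VCaP and at most 15 elsewhere. BNIP3L, a receptor that marks mitochondria for removal, had 1 count over all 6 VCaP libraries and 1543 to 7311 in each library of the other lines. ANKRD37 had 7 to 25 counts per library in VCaP.

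Promoters were searched for the core of the hypoxia response element, ACGTG or GCGTG, on both strands (read as CACGT or CACGC on the other strand; ACGTG also lies within the E-box CACGTG, which other factors bind). RefSeq windows of 250 bases upstream of the start (GRCh38.p14) were found for 32 of the 35 genes, and not for SLC2A3, VEGFA and BNIP3L. A match was present at 1 or more starts of 27 genes, and at no start of SLC2A1, EGLN3, PGAM1, PKM and P4HA2. Of the 58 start windows of these genes 60.3% held it, against 43.2% of 35116 windows of all genes, and a match is a description of the letters and not of a bound site. The windows of 4 genes that rose after RB1 siRNA in VCaP cells and of GAPDH, which fell with doxycycline in C4-2 cells, are shown 5′ to 3′ in the direction of the gene, with matches in capitals. They were chosen after the values below were seen, and all of them hold a match. EGLN3 and P4HA2, without a match, rose with doxycycline in C4-2 cells. A link between matches and changes was not tested.
P4HA1 (chr10:73096867-73097116, minus strand): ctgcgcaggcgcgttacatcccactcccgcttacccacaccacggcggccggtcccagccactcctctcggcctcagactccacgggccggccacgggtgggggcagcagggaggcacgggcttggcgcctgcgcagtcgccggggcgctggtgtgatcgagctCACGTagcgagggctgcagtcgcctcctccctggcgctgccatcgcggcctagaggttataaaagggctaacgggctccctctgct
PFKFB4 (chr3:48556804-48557053, minus strand): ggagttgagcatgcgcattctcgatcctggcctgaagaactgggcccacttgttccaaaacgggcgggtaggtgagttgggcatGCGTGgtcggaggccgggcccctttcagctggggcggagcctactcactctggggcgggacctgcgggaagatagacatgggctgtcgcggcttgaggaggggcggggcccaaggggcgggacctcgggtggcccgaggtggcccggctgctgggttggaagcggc
PDK1 (chr2:172555840-172556089, plus strand): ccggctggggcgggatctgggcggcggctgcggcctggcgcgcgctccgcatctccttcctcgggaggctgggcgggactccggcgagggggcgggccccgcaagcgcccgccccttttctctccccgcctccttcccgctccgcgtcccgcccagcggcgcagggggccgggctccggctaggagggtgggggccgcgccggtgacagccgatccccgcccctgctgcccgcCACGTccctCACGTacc
ALDOC (chr17:28576896-28577145, minus strand): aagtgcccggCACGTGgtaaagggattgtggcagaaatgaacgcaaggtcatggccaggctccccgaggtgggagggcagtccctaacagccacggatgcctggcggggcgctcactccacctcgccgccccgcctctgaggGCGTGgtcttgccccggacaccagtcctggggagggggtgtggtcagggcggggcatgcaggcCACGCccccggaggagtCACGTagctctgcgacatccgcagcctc
GAPDH (chr12:6535014-6535263, plus strand): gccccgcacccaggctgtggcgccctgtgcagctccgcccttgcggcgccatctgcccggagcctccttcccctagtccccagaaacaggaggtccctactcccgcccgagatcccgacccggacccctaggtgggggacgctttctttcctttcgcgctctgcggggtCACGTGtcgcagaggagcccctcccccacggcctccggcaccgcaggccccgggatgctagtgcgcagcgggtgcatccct
The ALDOC window held 5 matches, of which 2 overlap in a CACGTG near its distal end. PDK1 has 2 starts, of which 1 holds a match, and the window with the most matches is shown. Both matches of PDK1 lie within the last 17 bases before that start. GAPDH, which was not called in VCaP cells, has 2 matches that are the strands of 1 CACGTG.

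The first comparison asks what RB1 depletion did to these genes in VCaP cells. Of the 35, 32 had enough counts to be tested (SLC2A3, CA9 and BNIP3L did not), 11 rose, none fell, and 29 had a positive log2 fold change. Over all 14066 genes tested, 2.96% were called up and 2.65% down (edgeR, Benjamini-Hochberg adjusted p under 0.05). The median log2 fold change was 0.19 over the 32 genes and -0.0013 over all genes. At an unadjusted p under 0.05, 19 of the 32 were higher and 1 was lower, but the share of all genes at that limit was not counted. In cell populations such as these, fewer cells that express a gene and less RNA per cell cannot be told apart.

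**Figure D2:**
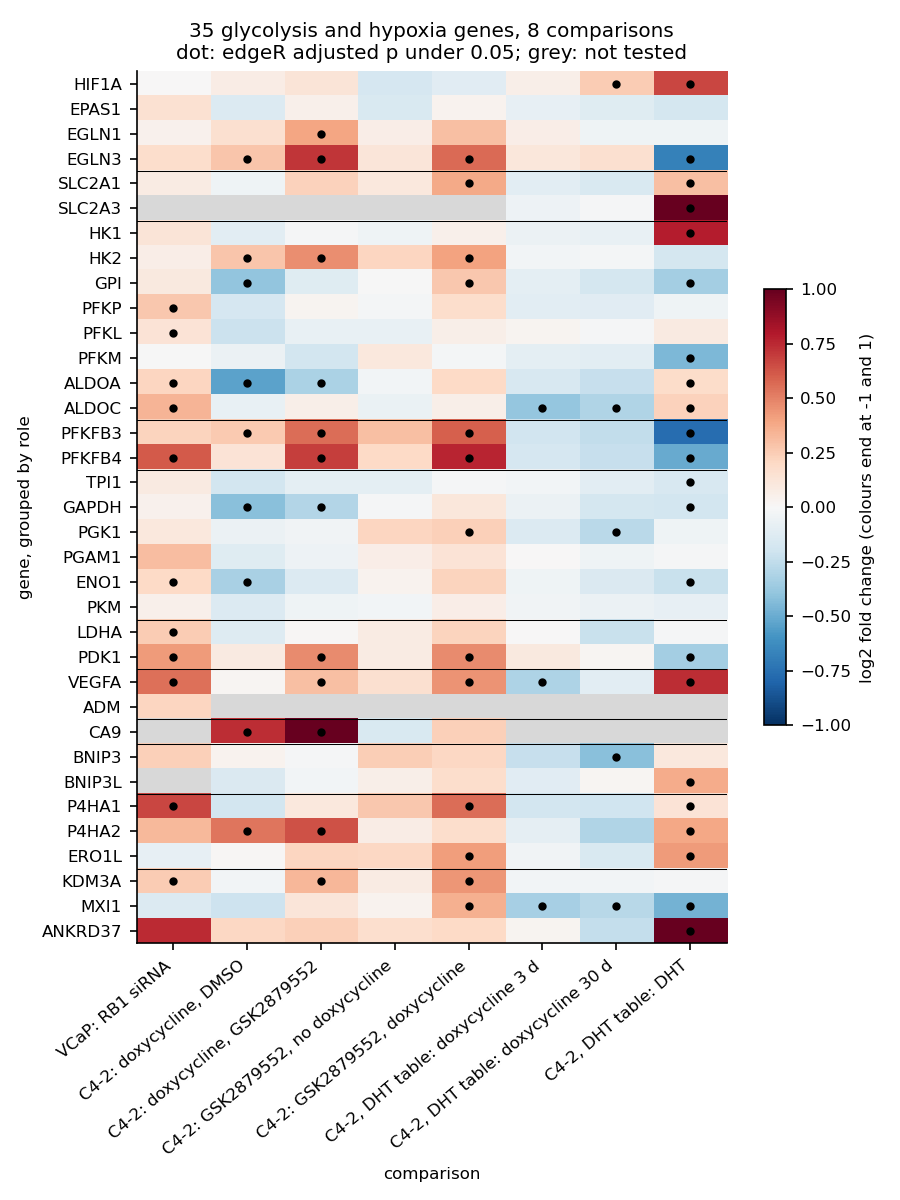
Log2 fold change of each gene (rows, grouped by role) in 8 comparisons (columns), red for higher and blue for lower, with colours ending at -1 and 1; a dot marks a Benjamini-Hochberg adjusted p under 0.05 in edgeR and grey a gene not tested. The VCaP column holds 11 dots, all on red, whereas the column of doxycycline with DMSO in C4-2 cells holds 5 on red and 4 on blue.

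The largest called rise was in collagen modification. P4HA1, the catalytic subunit of prolyl 4-hydroxylase, was at 42.1, 44.2 and 45.7 CPM in the control libraries and 64.8, 68.4 and 77.3 CPM after RB1 siRNA. All 3 treated libraries lay above all controls, and P4HA1 rose by 0.67 ± 0.076 on the log2 scale (± SE throughout; edgeR adjusted p = 1.02e-10). Its relative P4HA2 was at 6.60, 5.78 and 5.71 against 8.19, 7.61 and 6.88 CPM and was not called (0.33 ± 0.20, edgeR adjusted p = 0.408), and neither was ERO1L, which renews disulfide bonds in the endoplasmic reticulum (-0.079 ± 0.074).

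PFKFB3 and PFKFB4, bifunctional enzymes that set fructose 2,6-bisphosphate, the activator of phosphofructokinase, were called differently. PFKFB4 was at 38.2, 29.6 and 40.6 CPM in controls and 57.5, 55.6 and 53.0 CPM after RB1 siRNA. The second control library was the lowest, the groups did not overlap, and PFKFB4 rose by 0.61 ± 0.085 (edgeR adjusted p = 6.27e-08). PFKFB3 was at 26.4, 31.7 and 28.6 against 36.0, 33.6 and 31.4 CPM, with the groups overlapping and no call (0.22 ± 0.096, edgeR adjusted p = 0.189).

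PDK1 and LDHA, which act on the fate of pyruvate, both rose. PDK1, the kinase that switches off pyruvate dehydrogenase, was at 64.2, 68.9 and 72.3 CPM in controls and 94.2, 88.7 and 92.8 CPM in the treated libraries. LDHA, which makes lactate, was at 325, 316 and 325 against 394, 376 and 382 CPM. For each gene the treated libraries stood clear of the controls, and the rise was 0.42 ± 0.062 for PDK1 and 0.25 ± 0.035 for LDHA (edgeR adjusted p = 2.25e-07 and 6.27e-08). VEGFA, the growth factor for blood vessels, was at 69.9, 74.7 and 71.2 CPM and then 111, 108 and 95.8 CPM. It rose by 0.55 ± 0.061 (edgeR adjusted p = 3.48e-11), again without overlap, while ADM was not called (0.21 ± 0.18) and its controls spanned all treated values.

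Among the 15 enzymes of glycolysis with LDHA, 14 had a positive log2 fold change and 6 rose, by small amounts. ENO1 was at 1112, 1102 and 1086 CPM in controls and 1307, 1266 and 1223 CPM after RB1 siRNA. ALDOA was at 394, 387 and 371 against 452, 439 and 449 CPM, and PFKP, the platelet-type phosphofructokinase, at 130.0, 137 and 126 against 157, 161 and 156 CPM. In each, the lowest treated library exceeded the highest control, and the rises were 0.20 ± 0.029 for ENO1, 0.21 ± 0.034 for ALDOA and 0.27 ± 0.047 for PFKP (edgeR adjusted p = 1.36e-07, 1.88e-06 and 1.74e-05). ALDOC, the aldolase best known from brain, rose by 0.34 ± 0.10 (edgeR adjusted p = 0.0302) and PFKL, the liver-type phosphofructokinase, by 0.13 ± 0.038 (edgeR adjusted p = 0.0191). PFKL had its highest control at 283 and its lowest treated library at 285 CPM. GAPDH, by contrast, was at 943, 877 and 919 and 959.6, 929.6 and 939.6 CPM with a log2 fold change of 0.045 ± 0.030, and PFKM, the muscle-type phosphofructokinase, at -0.0021 ± 0.037, neither of them called. The hexokinases HK1 and HK2, which trap glucose in the cell, were at 0.13 ± 0.044 and 0.067 ± 0.087, also without a call.

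The oxygen sensors and HIF subunits themselves were not called. HIF1A was at 104, 113 and 109 CPM in controls and 106, 105 and 117 CPM after RB1 siRNA, with full overlap and a log2 fold change of 0.0063 ± 0.054 (edgeR adjusted p = 0.969). EPAS1 was at 0.15 ± 0.12, EGLN1 at 0.043 ± 0.093, EGLN3 at 0.18 ± 0.12 and the glucose transporter SLC2A1 (GLUT1) at 0.082 ± 0.068. Of the nuclear regulators, KDM3A, a histone H3 lysine 9 demethylase known as a HIF target, was at 64.0, 65.2 and 68.1 against 81.1, 72.1 and 82.4 CPM and rose by 0.25 ± 0.065 (edgeR adjusted p = 0.00755). ANKRD37 had the largest log2 fold change of all, 0.75 ± 0.36, without a call (edgeR adjusted p = 0.254). It was at 1.59, 1.62 and 1.54 CPM in controls and 3.53, 2.17 and 2.24 CPM in the treated libraries, the first of which stood apart. These levels rest on 7 counts in each control library and 25, 14 and 14 in the treated ones.

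**Figure D3:**
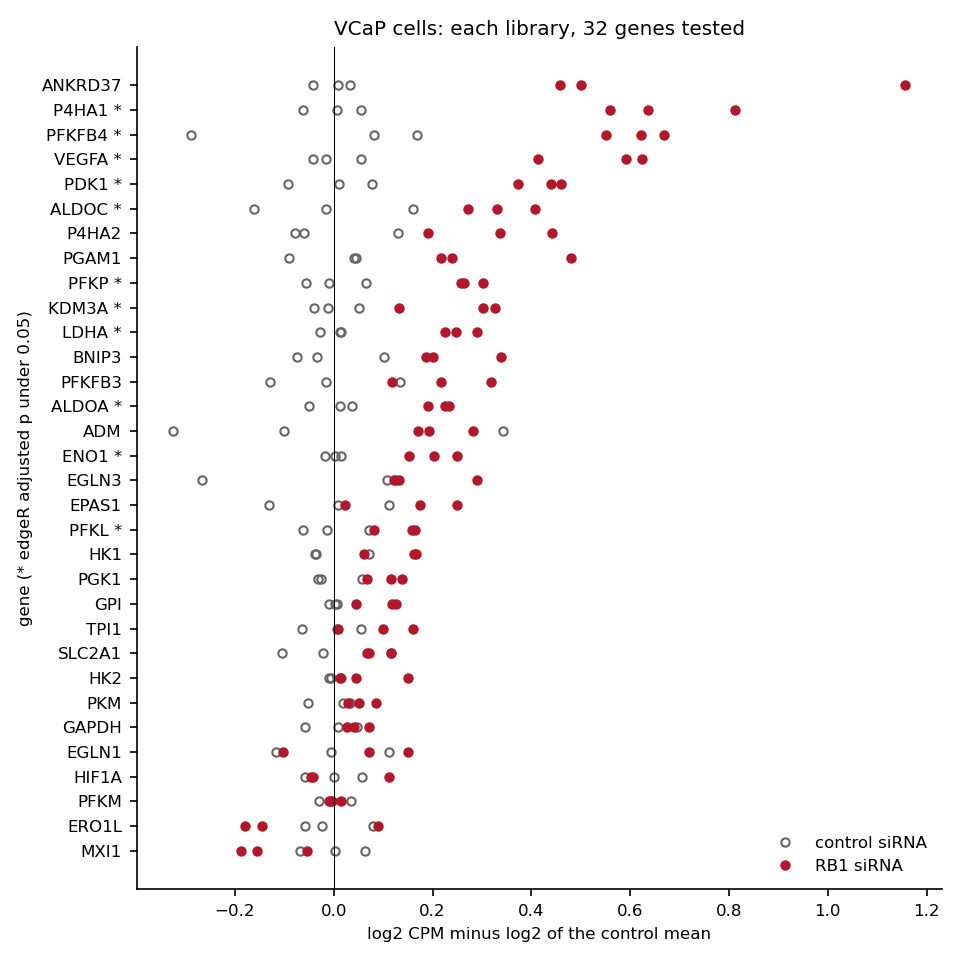
Log2 CPM of each VCaP library minus the log2 of the control mean (horizontal axis) for the 32 genes tested, ordered by log2 fold change, with open circles for control siRNA and filled circles for RB1 siRNA (3 libraries each). In the 11 genes with an asterisk (edgeR adjusted p under 0.05) every filled circle lies to the right of every open one. For HIF1A they overlap. The 11 genes were called from these same libraries, so their separation adds no support. The share of all genes so separated was not counted.

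Other genes of these pathways were taken from lists drawn up apart from the 35. Of 32 tested other hypoxia-induced genes, 4 rose, among them PLOD2, a lysyl hydroxylase of collagen (0.63 ± 0.089), and NDRG1 (0.20 ± 0.028), and 1 fell, BHLHE41 (fell by 0.41 ± 0.11). Of 12 tested regulators of the HIF pathway, 1 fell, HIF1AN, the asparagine hydroxylase that inhibits HIF (fell by 0.32 ± 0.061), and none rose. Of 15 other genes of glycolysis and lactate, 1 rose, the lactate exporter SLC16A3 (0.55 ± 0.10), and none of 11 genes of the pyruvate dehydrogenase group or 7 of the pentose phosphate pathway was called. The RB1 siRNA libraries were deeper (6218938 to 7107036 reads) than the controls (4311455 to 4551211), and mitochondrial transcripts took 2.09% to 2.21% of counts in them and 2.44% to 2.58% in controls. The part of these differences in the results was not tested. The VCaP replicates differed by little more than counting error (chi-square per degree of freedom of 1.13 to 1.39), so the p-values rest on a narrow spread. Leaving out 1 library at a time gave 8 to 16 genes called up, 8 without the second control library and 16 without the third RB1 siRNA library, and PFKL, ALDOC and KDM3A each lost their call in at least 2 of the 6 cases.

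In C4-2 cells the corresponding comparison is 3 days of doxycycline against none, with DMSO. Here the gene set split: 4 enzymes of glycolysis fell, and 5 genes, only 1 of them an enzyme of glycolysis, rose. Of 33 genes tested (not SLC2A3 and ADM), 5 were thus called up and 4 down, where 4.25% and 3.59% of all 18423 genes were called. The median log2 fold change was -0.13 over the 15 enzymes of glycolysis with LDHA, of which 14 were negative, 0.053 over the other 18 genes tested and -0.0017 over all genes.

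The falls spanned the pathway from GPI to ENO1. ALDOA was at 6320.3 and 5746 CPM with DMSO and 4227 and 4125 CPM with doxycycline, and GAPDH at 5820.1 and 5649 against 4347 and 4267 CPM. GPI, which turns glucose 6-phosphate into fructose 6-phosphate, was at 3464 and 3269.8 against 2584 and 2563 CPM, and ENO1 at 5949.9 and 5687 against 4682 and 4656 CPM. Both doxycycline libraries were below both DMSO libraries in all 4 genes, but the share of all genes so separated was not counted. ALDOA fell by 0.54 ± 0.064 (edgeR adjusted p = 9.36e-05), GAPDH by 0.42 ± 0.052 (1.28e-04), GPI by 0.39 ± 0.056 (4.31e-04) and ENO1 by 0.32 ± 0.056 (0.00189). TPI1, PFKL and PFKP were at -0.18 ± 0.060, -0.22 ± 0.079 and -0.17 ± 0.066 with no call, and PKM, the pyruvate kinase, at -0.13 ± 0.057.

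The genes that rose were CA9, P4HA2, PFKFB3, HK2 and EGLN3. CA9 was at 8.79 and 8.50 CPM with DMSO and 15.9 and 13.1 CPM with doxycycline, and P4HA2 at 43.3 and 40.5 against 62.0 and 60.0 CPM. PFKFB3 was at 143 and 155 against 180.1 and 179 CPM, HK2, the hexokinase known as a HIF target, at 126 and 131 against 156 and 157 CPM and EGLN3 at 57.0 and 55.5 against 67.7 and 69.2 CPM. The groups did not overlap in any of the 5, again with no share of all genes counted. CA9 rose by 0.74 ± 0.16 (edgeR adjusted p = 0.00712), P4HA2 by 0.54 ± 0.079 (5.98e-04), HK2 by 0.28 ± 0.063 (0.0123), EGLN3 by 0.28 ± 0.073 (0.0263) and PFKFB3 by 0.26 ± 0.067 (0.0229). HK2, EGLN3 and PFKFB3 lost their call without any 1 of the 4 libraries compared, and CA9 without any 1 of 3 of them. P4HA2 kept its call in each case. Among the falls, only ENO1 lost its call, without the second doxycycline library. P4HA1, the leading gene in VCaP, was at 337 and 338 and 293 and 304 CPM here, a log2 fold change of -0.18 ± 0.065 that was not called (edgeR adjusted p = 0.0937). VEGFA and LDHA were at 0.016 ± 0.058 and -0.13 ± 0.062. The DMSO libraries had 2.72% and 3.58% of counts on mitochondrial transcripts and in that table the other 6 libraries had 3.99% to 4.61%, and the part of this in the result was not tested. Leaving out any of the 4 libraries compared left 1 or 2 genes called up (1 without either DMSO library or without the first doxycycline library, 2 without the second) and 3 or 4 called down, and leaving out either GSK2879552 library without doxycycline, which takes no part in the comparison but in the spread, gave 5 up and 9 down.

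With GSK2879552 present in both groups, doxycycline gave 10 rises and 2 falls among the 33 genes, with 4.52% and 3.2% of all genes called. This comparison shares no library with the preceding one. CA9 was at 7.08 and 8.74 CPM with the inhibitor alone and 19.0 and 14.8 CPM with doxycycline as well, EGLN3 at 63.1 and 60.0 against 101 and 99.8 CPM, and PFKFB4 at 177 and 184 against 300.0 and 279 CPM. None of these groups overlapped. CA9 rose by 1.13 ± 0.15 (edgeR adjusted p = 2.59e-04), EGLN3 by 0.72 ± 0.071 (1.45e-05), PFKFB4 by 0.69 ± 0.066 (1.03e-05), P4HA2 by 0.64 ± 0.078 (1.17e-04) and PFKFB3 by 0.56 ± 0.066 (8.59e-05). PDK1 (0.47 ± 0.075), HK2 (0.46 ± 0.062), EGLN1 (0.39 ± 0.079), KDM3A (0.33 ± 0.072) and VEGFA (0.30 ± 0.057) rose too. ALDOA fell by 0.31 ± 0.064 and GAPDH by 0.30 ± 0.052 (edgeR adjusted p = 0.00649 and 0.00231), as both did without the inhibitor. Leaving out 1 library gave 8 to 13 up and 1 to 6 down. Without the second library with both agents, 8 rose and 1 fell, and ALDOA, EGLN1 and KDM3A lost their call, and VEGFA lost its call without the first. Of 33 tested other hypoxia-induced genes, 10 rose and 1 fell with the inhibitor present, with STC2 (0.88 ± 0.059) and STC1 (0.81 ± 0.094) at the smallest adjusted p, against 5 and 3 with DMSO. MPC2, a subunit of the mitochondrial pyruvate carrier, fell by 0.54 ± 0.088 with DMSO and by 0.70 ± 0.088 with the inhibitor.

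The difference between the 2 lines was tested directly, as the change with RB1 siRNA in VCaP minus the change with doxycycline and DMSO in C4-2. It was positive and called for 15 of the 35 genes and negative and called for none, where 2.88% and 1.75% of 19976 genes were called. CA9 and BNIP3L entered this fit although they are near 0 in VCaP. Of the 15 enzymes of glycolysis with LDHA, 11 were among those called. P4HA1 differed by 0.89 ± 0.099 (edgeR adjusted p = 6.77e-08), the largest called value, and ALDOA by 0.79 ± 0.069 (1.68e-10), with opposite signs of the fitted change in the 2 lines for both (that of P4HA1 in C4-2 was not called). For GAPDH the difference of 0.50 ± 0.059 (edgeR adjusted p = 2.26e-07) came with a change that was not called in VCaP and a fall in C4-2. For VEGFA (0.57 ± 0.082, edgeR adjusted p = 1.04e-05) it came with a rise in VCaP and 0.016 ± 0.058 in C4-2. PFKFB3, EGLN3, HK2 and P4HA2, which rose in C4-2 cells, were not called for a difference (-0.0021, -0.060, -0.17 and -0.17). Line, siRNA or hairpin, time and medium changed together, and their parts cannot be told apart.

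**Figure D4:**
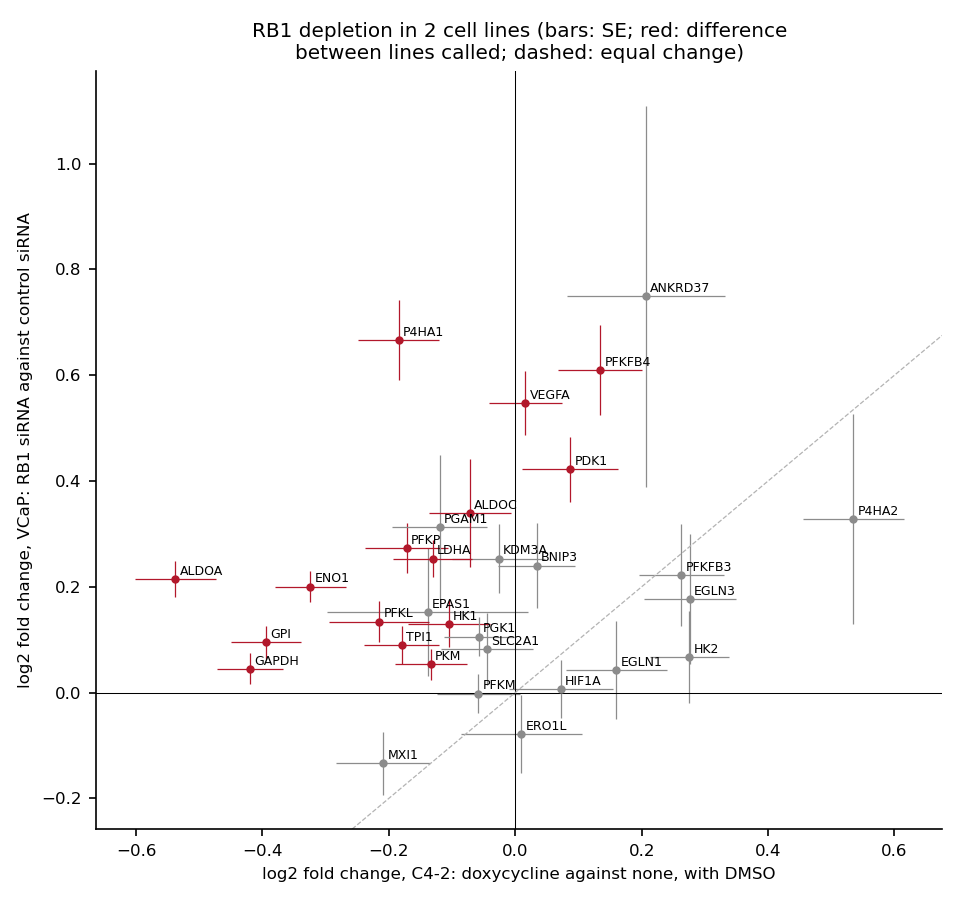
Log2 fold change with RB1 siRNA in VCaP (vertical axis) against that with doxycycline and DMSO in C4-2 cells (horizontal axis) for the genes tested in both, with bars of 1 SE; red marks a called difference between the lines and the dashed line equal change. P4HA1, ALDOA, ENO1, GPI and GAPDH lie in the upper left, positive in VCaP and negative in C4-2.

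The LSD1 inhibitor was compared with DMSO without and with doxycycline. Without doxycycline, none of the 33 genes was called in either direction in edgeR, where 0.619% and 0.0597% of all genes were. By unadjusted p below 0.05, 8 were higher and none lower, but the share of all genes at that limit was not counted. DESeq2 called 3 up. With doxycycline, 13 rose and none fell, where 1.24% and 0.0923% of all genes were called. PFKFB4 was at 162 and 150.5 CPM with DMSO, 177 and 184 CPM with the inhibitor, 172 and 172 CPM with doxycycline and 300.0 and 279 CPM with both. The 2 libraries with both agents stood far above the other 6, and PFKFB4 rose by 0.76 ± 0.066 with doxycycline (edgeR adjusted p = 4.91e-06) against 0.20 ± 0.067 without it (0.218).

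The genes that rose with the inhibitor in doxycycline-treated cells came from most roles. PFKFB3, at 180.1 and 179 CPM and 274 and 264 CPM with the inhibitor, rose by 0.59 ± 0.066 (edgeR adjusted p = 6.49e-05). EGLN3, at 67.7 and 69.2 and then 101 and 99.8 CPM, rose by 0.56 ± 0.070 (1.69e-04 in edgeR), and P4HA1, at 293 and 304 and then 426 and 446 CPM, by 0.56 ± 0.064 (9.42e-05 in edgeR). The groups were apart in each of these 3. P4HA1 was also at 434 and 385 CPM with the inhibitor alone, above both DMSO libraries, but without a call (0.27 ± 0.065, edgeR adjusted p = 0.0682). PDK1 rose by 0.47 ± 0.075, VEGFA by 0.45 ± 0.057, KDM3A by 0.44 ± 0.072, ERO1L by 0.41 ± 0.094, HK2 by 0.40 ± 0.062, SLC2A1 by 0.38 ± 0.071 and MXI1, a MYC antagonist known as a HIF target, by 0.36 ± 0.073. Of the enzymes of glycolysis, GPI rose by 0.27 ± 0.056 and PGK1, the first enzyme of the pathway to make ATP, by 0.24 ± 0.056, and 13 of 15 were positive. HIF1A was at -0.11 ± 0.082, with no call. Of 33 tested other hypoxia-induced genes, 11 rose and none fell, among them STC2 (0.51 ± 0.058) and PPFIA4 (0.63 ± 0.078).

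A larger response with doxycycline was not shown by the test of the difference. No gene of the 33 was called in either direction for the response with minus without doxycycline in edgeR (0% of all genes up and 0.0163% down). The difference was positive for 31 of 33, with 13 higher and none lower by unadjusted p below 0.05, and DESeq2 called 1 up. The shares of all genes that were positive or under that unadjusted limit were not counted. These counts therefore cannot show a trait particular to these genes. PFKFB4 had 0.56 ± 0.094 (edgeR adjusted p = 0.0737) and EGLN3 0.44 ± 0.10 (0.540 in edgeR). The pair given the inhibitor alone differed most between replicates, with a chi-square ratio of their counts of 7.88 against a lowest value of 1.61 in this table. Without its first library the difference was called up for 6 genes and without its second for 5, and the inhibitor without doxycycline for 6 and 5. With doxycycline the number that rose was 20 or 19 without one of them, 5 without either library with doxycycline and DMSO, and 7 or 6 without one of those with both agents. SLC2A1, GPI, PGK1, ERO1L and MXI1 lost their call whenever any 1 of the 4 libraries compared was left out. HK2, PDK1 and KDM3A lost theirs in 3 of these cases. PFKFB4, PFKFB3, EGLN3, P4HA1 and VEGFA kept their call throughout. The comparisons of this table share libraries: those with the inhibitor use the same groups as those with doxycycline.

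In LNCaP cells GSK2879552 was compared in 1 library against 1, at another dose and time, so no test applies and the values stand beside those of C4-2 without comparison. Of 31 genes that reached 100 counts in both libraries together, none passed 2-fold, where 1.4% of 11955 genes did in each direction. LDHA was the lowest, at 259 CPM with vehicle and 132 CPM with the inhibitor, a log2 ratio of -0.98 (95% interval -1.06 to -0.90). The intervals are exact and cover counting error only. Of the 15 enzymes of glycolysis with LDHA, 13 had a ratio below 1, with a median log2 ratio of -0.34 against -0.02 over all genes. PFKFB4, P4HA1 and PDK1 were at -0.22 (95% interval -0.52 to 0.066), -0.24 (95% interval -0.39 to -0.10) and -0.16 (95% interval -0.38 to 0.063). On the higher side, EPAS1 was at 0.58 (95% interval 0.11 to 1.06), with 93 counts with the inhibitor and 65 with vehicle. EGLN1 was at 0.49, VEGFA at 0.35, ERO1L at 0.33, P4HA2 at 0.32 and HIF1A at 0.31. Stromal, endothelial and immune markers summed to 24.8 CPM with vehicle and 10.2 CPM with the inhibitor, and the androgen target KLK3 was at 569 and 271 CPM, whose part in these ratios was not tested.

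DHT gave calls in both directions among these genes. Over the 3 doxycycline levels, in an additive model with 1 DHT response for all of them, 12 of 33 genes rose and 10 fell (ADM and CA9 were not tested). Of all 16504 genes tested, 25.1% were called up and 23.9% down, so a call with DHT is common and the 22 of 33 called here stand against 49% of all genes. With 1 library per group, the spread behind these calls is the departure from the additive model (2 residual degrees of freedom). It is not a spread between replicates, and the doxycycline levels stand in their place. The hypoxia genes did not move as 1 group: SLC2A1, HIF1A and VEGFA rose, whereas PFKFB3, PFKFB4, EGLN3 and PDK1 fell.

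The glucose transporters were higher with DHT. SLC2A3 had 12, 3 and 6 counts with vehicle at 0, 3 and 30 days of doxycycline and 150, 163 and 167 with DHT. It went from near the detection limit to 10.9, 11.7 and 11.6 CPM, ratios of 14.7, 68.8 and 33.3 with 95% intervals on the log2 scale of 3.03 to 4.86, 4.53 to 8.40 and 3.90 to 6.52. SLC2A3 passed the filter on low counts only through the DHT libraries, so its call, 1 of the 12, supports nothing beyond these counts. SLC2A1 was at 90.4, 87.3 and 84.5 CPM with vehicle and 116, 106 and 101 CPM with DHT, without overlap, and rose by 0.30 ± 0.056 (edgeR adjusted p = 7.92e-05).

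HIF1A was at 149, 157 and 176 CPM with vehicle and 235, 247 and 286 CPM with DHT at 0, 3 and 30 days, and VEGFA at 205, 182 and 194 against 366, 275 and 338 CPM. HK1, the hexokinase of most tissues, was at 209, 216 and 214 against 395, 358 and 349.8 CPM. All DHT libraries exceeded all vehicle libraries for these 3 genes. HIF1A rose by 0.67 ± 0.052, VEGFA by 0.74 ± 0.055 and HK1 by 0.78 ± 0.054 (edgeR adjusted p = 7.99e-11, 3.14e-11 and 7.98e-12). ANKRD37 was at 6.56, 6.66 and 5.22 CPM and with DHT at 14.9, 15.4 and 13.2 CPM, a rise of 1.24 ± 0.11 (edgeR adjusted p = 1.57e-09). ANKRD37 and SLC2A3 were the only ones of 32 genes reaching 100 counts to pass 2-fold at each level, and none passed it downwards. SLC2A3 reached 100 counts only through its DHT libraries, so its passing was fixed by that filter and supports nothing. Of all genes, 4.03%, 3.21% and 3.2% passed upwards and 3.46%, 1.81% and 1.79% downwards at 0, 3 and 30 days. Smaller rises were called for ERO1L (0.43), P4HA2 (0.39), BNIP3L (0.37), ALDOC (0.23), ALDOA (0.19) and P4HA1 (0.13), the last losing its call when any of the 4 doxycycline libraries was left out.

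PFKFB3 and PFKFB4 fell. PFKFB3 was at 60.5, 51.4 and 44.2 CPM with vehicle and 30.7, 29.1 and 31.7 CPM with DHT at 0, 3 and 30 days, and PFKFB4 at 73.9, 63.8 and 55.9 against 46.3, 44.1 and 45.8 CPM. The DHT libraries were close to one another, the vehicle libraries were all higher and were highest without doxycycline. PFKFB3 fell by 0.76 ± 0.078 and PFKFB4 by 0.50 ± 0.070 (edgeR adjusted p = 1.14e-08 and 1.42e-06). By level, the log2 ratio of PFKFB3 was -0.98 (95% interval -1.14 to -0.81), -0.82 (95% interval -0.99 to -0.65) and -0.48 (95% interval -0.65 to -0.31). With 1 library in each cell of the design, the change of this ratio with doxycycline was not tested. PFKM was at 263, 269 and 262 CPM and with DHT at 213, 185 and 186 CPM and fell by 0.45 ± 0.054 (edgeR adjusted p = 1.93e-07), while PFKP and PFKL were at -0.040 ± 0.055 and 0.089 ± 0.056 with no call.

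EGLN3 was at 35.1, 38.1 and 39.8 CPM with vehicle and 21.9, 24.4 and 24.5 CPM with DHT and fell by 0.68 ± 0.072 (edgeR adjusted p = 1.87e-08). MXI1 fell by 0.47 ± 0.059, PDK1 by 0.34 ± 0.059 and GPI by 0.34 ± 0.053, each lower with DHT at all 3 levels. ENO1 (fell by 0.22 ± 0.055), GAPDH (fell by 0.18 ± 0.053) and TPI1 (fell by 0.16 ± 0.054) were called with small changes, and each lost its call without 1 or both libraries of the 3-day level. LDHA, PKM, PGK1 and PGAM1 were not called. Of 33 tested other hypoxia-induced genes, 8 rose, among them NDRG1 (2.14 ± 0.055) and ERRFI1 (1.75 ± 0.068), and 16 fell, among them STC2 (fell by 1.52 ± 0.060) and DDIT4 (fell by 0.95 ± 0.055). Of 18 tested other genes of glycolysis and lactate, 8 rose, among them the glucose transporter SLC2A12 (1.48 ± 0.067) and PFKFB2 (0.65 ± 0.059), and 4 fell, among them the monocarboxylate transporters SLC16A7 (fell by 1.43 ± 0.13) and SLC16A1 (fell by 0.53 ± 0.052). PFKFB1, outside the rule for naming genes and named after its value was seen, rose by 0.99 ± 0.35, with a much wider SE than PFKFB2. A contrast within the PFKFB family was not tested. Of 11 tested genes of the pyruvate dehydrogenase group 5 rose, MPC2 by 1.12 ± 0.056, and 3 fell.

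**Figure D5:**
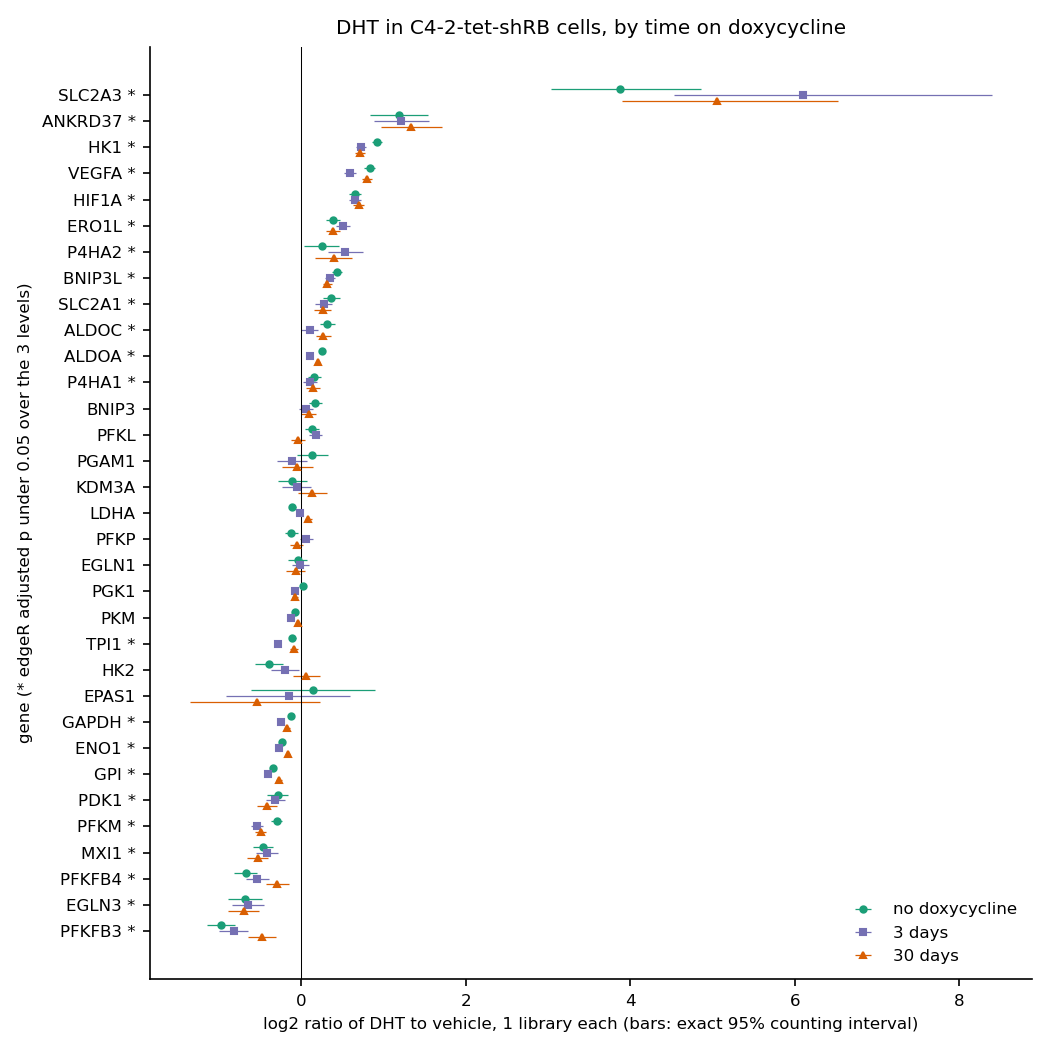
Log2 ratio of DHT to vehicle for 33 genes in C4-2-tet-shRB cells without doxycycline and after 3 and 30 days of it (1 library against 1 at each level; bars are exact 95% counting intervals). SLC2A3 and ANKRD37 lie farthest to the right at every level, and PFKFB3, EGLN3 and PFKFB4, at the bottom, have the lowest fitted changes over the 3 levels.

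Doxycycline in the DHT table was fitted over vehicle and DHT. After 3 days, 3 genes fell and none rose, where 0.188% and 0.254% of all genes were called, with none higher and 6 lower by unadjusted p below 0.05. ALDOC was at 124 and 154 CPM without doxycycline (vehicle, then DHT) and 103 and 111 CPM with it, and the 2 groups did not overlap. ALDOC fell by 0.38 ± 0.069 (edgeR adjusted p = 0.00657), MXI1 by 0.33 ± 0.072 (0.0417) and VEGFA by 0.31 ± 0.067 (0.0429), and all 3 calls were lost without the library with DHT at 3 days. VEGFA and MXI1 overlapped between the levels, each of which holds a vehicle and a DHT library.

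After 30 days, 4 genes fell and 1 rose, where 1.55% and 2.51% of all genes were called. BNIP3, a receptor for removal of mitochondria, was at 166 and 188 CPM without doxycycline (vehicle, then DHT) and 128 and 137 CPM after 30 days, without overlap, and fell by 0.42 ± 0.065 (edgeR adjusted p = 3.25e-04). ALDOC fell by 0.30 ± 0.068, MXI1 by 0.28 ± 0.072 and PGK1 by 0.27 ± 0.065, and HIF1A rose by 0.25 ± 0.063 (edgeR adjusted p = 0.0123, 0.0261, 0.0171 and 0.0218). Of these, only the call of BNIP3 held without either 30-day library. All 15 enzymes of glycolysis with LDHA had a negative log2 fold change, with a median of -0.11 against -0.0023 over all genes. None was called between 30 and 3 days in either direction in edgeR (0.248% of all genes up and 0.0727% down), with 3 higher and 3 lower by unadjusted p below 0.05, and the comparisons with 3 and with 30 days share their control libraries.

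The 3-day effect of doxycycline was compared between the 2 C4-2 tables, as the inhibitor table with DMSO minus the DHT table. P4HA2 differed upwards by 0.64 ± 0.13 (edgeR adjusted p = 0.00875), and GAPDH and ALDOA downwards, at -0.35 ± 0.082 and -0.37 ± 0.093 (edgeR adjusted p = 0.0290 and 0.0496), 1 and 2 of 34 genes against 0.672% and 0.378% of 19059. P4HA2 was at 23.2 and 19.8 CPM without and with 3 days of doxycycline under vehicle in the DHT table, and was not called in the fit of that table. GAPDH was at 1178 and 1185 CPM there. Leaving out 1 library of the 14 in the fit gave 0 to 4 up and 0 to 4 down, and the call was lost in 10 of the 14 cases for ALDOA, in 7 for GAPDH and in 4 for P4HA2. The losses of P4HA2 came without the second DMSO library, the first library with doxycycline and DMSO, and either vehicle library of the DHT table at 0 or 3 days. The effect in the DHT table was fitted over vehicle and DHT with additive terms, and that in the inhibitor table with DMSO alone. Kit, serum, vehicle and DHT therefore differed between the tables and cannot be told apart.

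Across the study, the genes whose pattern was most like that of P4HA1 were found by the correlation of log2 CPM, centred within each table, over the 22 libraries. Of 12700 genes the closest were BNIP3P1 (Pearson r = 0.82), ERO1LB (0.80) and KDM3A (0.78), and of the other genes described here PFKP (0.70) and BNIP3 (0.70) came next. The libraries share their tables, controls and depth, and these values are given as a description. BNIP3P1 is annotated as a copy of BNIP3, whose reads it may share.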

How the data were processed

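RNA-seq of VCaP, C4-2-tet-shRB and LNCaP cells was analysed from 4 count tables with 30 columns, all of them mapped to samples (0 were not). The authors deposited raw counts per Ensembl gene, without normalization. Per the submitters' processing notes, FastQC 0.11.9, STAR 2.7.2 and featureCounts 1.6.4 were used with hg19 (GRCh37); how strand and multi-mapping reads were treated, and which annotation was used, is not given in the sources used here. Symbols were read from the VCaP table, since 29 were turned into dates in others, and genes were joined by Ensembl ID.

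Columns of the DHT and LNCaP tables that carry the same library name and another lane were summed as 1 library. A chi-square of their counts per degree of freedom (genes with at least 10 counts, limit 1.5) was 0.983 to 1.01. Between replicates with different library names it was 1.13 to 1.39 in VCaP, also under that limit, and 1.61 to 7.88 in the inhibitor table. The VCaP replicates were kept as separate libraries because their library names differ. Each table was fitted over all its groups with edgeR 4.0.16 in R 4.3.3 (TMM, filterByExpr, quasi-likelihood F test, Benjamini-Hochberg adjusted p under 0.05 over all genes tested), the DHT table with additive terms for doxycycline and DHT. The SE is the absolute log2 fold change over the root of the F statistic. The difference between lines came from a joint fit with a term for each group. The difference between the C4-2 tables came from a joint fit with a term for each group of the inhibitor table. In that fit the DHT table had additive terms for doxycycline and DHT. Pairs of single libraries are described by TMM-scaled ratios of genes with at least 100 counts, with exact 95% Clopper-Pearson intervals, a prior count of 2 and a limit of 2-fold. Levels per kilobase used exon lengths of GENCODE, on another build than the counts. Scripts were tested on simulated counts. Replicate numbers of the VCaP and inhibitor tables did not mark shared cultures in the labels, so no block was used. Biological coefficients of variation were 2.27% in VCaP, 5.79% in the inhibitor table and 5.00% in the DHT table. In the DHT table this value measures departure from the additive model, since no group had a replicate.

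All 35 genes could be named; where more than 12 were called, values are given for up to 3 per role and direction with the smallest adjusted p and the others are listed, and of other lists up to 2 genes per direction with the smallest adjusted p. The genes and lists were chosen with earlier results of these data known. Counts by sign, by unadjusted p or by lack of overlap between groups were made over the listed genes only, with no share of all genes. For called genes, lack of overlap comes from the same libraries as the call and adds no support to it. Alternatives were DESeq2 1.42.0, RLE scaling, no filter on low counts, only the groups compared, a replicate block, other scalings and thresholds for single libraries, each lane alone, and each library left out in turn.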

Additional observations from a re-analysis of the deposited data

Results flagged for a closer look

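A difference of the same contrast between 2 settings was called for 18 values. Between VCaP with RB1 siRNA and C4-2 with doxycycline and DMSO, the change was higher in VCaP (log2 difference ± SE, edgeR) for P4HA1 (0.89 ± 0.099), ALDOA (0.79 ± 0.069), VEGFA (0.57 ± 0.082), ENO1 (0.56 ± 0.061) and GPI (0.53 ± 0.063). The same held for PFKFB4 (0.51 ± 0.11), GAPDH (0.50 ± 0.059), PFKP (0.48 ± 0.080), ALDOC (0.45 ± 0.11) and LDHA (0.42 ± 0.069). Smaller differences were called for PFKL (0.39 ± 0.086), PDK1 (0.37 ± 0.099), TPI1 (0.31 ± 0.071), HK1 (0.27 ± 0.080) and PKM (0.23 ± 0.062), of which PDK1, HK1 and PKM lost their call in 6 or 7 of the 14 cases with 1 library left out. Between the 2 C4-2 tables, the 3-day effect of doxycycline was higher in the inhibitor table for P4HA2 (0.64 ± 0.13) and lower for ALDOA (-0.37 ± 0.093) and GAPDH (-0.35 ± 0.082). Their calls were lost in 4, 10 and 7 of the 14 cases with 1 library left out, in that order.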

How the results depend on the processing

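Depth and replicate number limit these results: most changes are below 2-fold, groups hold 1 to 3 libraries, and p-values cover only the spread between them. In the DHT table that spread is the departure from the additive model. For single genes called, 995 alternative values kept direction and call, 151 kept direction but lost the call (128 of them with 1 library left out), and 0 reversed. DESeq2 called 3 genes up for GSK2879552 without doxycycline, 1 up for the difference of the inhibitor response, 1 down after 3 days of doxycycline and 0 up and 2 down after 30 days in the DHT table, and 3 up and 4 down between the C4-2 tables. Without a filter on low counts, 4 were called up for GSK2879552 without doxycycline, 1 up for the difference of the inhibitor response and 3 up between the C4-2 tables. With only the 2 groups compared, 12 fell with doxycycline and DMSO and 20 rose with GSK2879552 and doxycycline. The cause of these shifts was not tested.

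In VCaP the deviations of same-numbered libraries correlated at 0.0080 to 0.022, against -0.017 to 0.0024 for different numbers. In the inhibitor table same-numbered libraries were at -0.23 to 0.090. With 2 libraries per group, different numbers there give the same values with the sign turned, so these cannot settle a pairing. The labels name no pairs, and the numbers were not taken as pairs. With a replicate block, 15 genes were called up in VCaP, 3 up and 4 down with doxycycline and DMSO, 10 up and 2 down with doxycycline and GSK2879552, and 9 up with GSK2879552 and doxycycline. The block gave 0 calls in all other directions of these comparisons and in those of the inhibitor without doxycycline and of the difference. No paired analysis was possible for the DHT and LNCaP tables because each group is 1 library.

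With 1 library left out, the counts ranged as follows. In VCaP, 8 to 16 were called up and 0 down. With doxycycline and DMSO, 1 to 5 were up and 3 to 9 down, and with doxycycline and GSK2879552 8 to 13 up and 1 to 6 down. For GSK2879552 without doxycycline 0 to 6 were up and 0 to 1 down, with doxycycline 5 to 20 up and 0 down, and for the difference 0 to 6 up and 0 down. For DHT 10 to 12 were up and 7 to 12 down. For 3 days of doxycycline in the DHT table, none were up and 0 to 5 down (0 without the 3-day DHT library), for 30 days 0 to 1 up and 1 to 8 down (1 without the 30-day vehicle library), and for 30 against 3 days 0 to 2 up and 0 to 2 down. From 0 to 4 were up and 0 to 4 down between the C4-2 tables, and 11 to 18 up between the lines and 0 down.

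For single libraries, a limit of 1.5-fold in place of 2-fold gave 1 gene down in LNCaP, 5 up and 3 down for DHT without doxycycline, 5 up and 2 down after 3 days and 5 up and 1 down after 30 days. With each lane alone, 1 gene was past 2-fold up at each DHT level, since fewer genes then reach 100 counts, and with library size scaling 1 up and 1 down without doxycycline.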

Other observations

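In VCaP cells BNIP3L stood out for its near absence, with 1 count over the 6 libraries against 43952 over the 8 libraries of the C4-2 inhibitor table, 26952 over the 6 of the DHT table and 3198 over the 2 of LNCaP. Its annotated neighbour PPP2R2A, a regulatory subunit of protein phosphatase 2A, had 2 counts in VCaP and 20921, 5201 and 3148 in those tables. On the other side, PNMA2 had 31 counts in VCaP, DPYSL2 744 and ADRA1A 2, and beyond PPP2R2A and EBF2 (0 counts) CDCA2 had 500. In the inhibitor, DHT and LNCaP tables PNMA2 had 273, 85 and 146 counts, ADRA1A 236, 87 and 116, and EBF2 353, 95 and 33. PNMA2, ADRA1A and EBF2 were thus low in those tables too. These genes were looked at after the value of BNIP3L was seen, and RefSeq gave their order.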
